A study of Mus musculus with 4 samples.

Results

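The 10 genes described here encode transcription factors of the AP-1 family and its BATF branch: Fos, Fosb, Fosl1, Fosl2, Jun, Junb, Jund, Batf, Batf3 and Atf3. They were chosen by gene name from a table of 34745 gene rows, and each name matched a single row. Their RNA was counted in 4 bulk libraries of mouse Th17 cells, helper T cells that secrete interleukin 17. The cells were naive CD4+ T cells from the spleen of C57BL/6 mice, cultured for 3 days in Th17-polarizing medium in both genotypes. Wild-type (WT) mice gave libraries 13 and 15, and mice labelled Setd2-CD4 cre gave libraries 22 and 24. Setd2 encodes the enzyme that trimethylates lysine 36 of histone H3 in transcribed genes. The Setd2 allele, the exons it removes, whether WT mice carry Cre or a floxed allele, age and sex were not stated in the labels. Cre driven by Cd4 sequences is switched on in the thymus, so such cells have a history of recombination before culture. The labels do not say that libraries came from separate animals or cultures, so p-values reflect the spread among these 4 libraries, which may be technical.

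AP-1 factors share a basic region that contacts DNA and a leucine zipper through which they pair. Fos proteins pair only with partners such as the Jun proteins, whereas Jun proteins also pair with each other. BATF lacks an activation domain of its own, pairs with Jun proteins and binds beside IRF4 at composite sites in T cells. In Th17 cells, BATF and JunB are needed for the Th17 program, and Fosl2 is known as a factor that limits the plasticity of these cells.

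In Setd2-CD4 cre cultures Jun, Atf3, Fosl2 and Batf3 rose, by 1.96-, 2.22-, 1.51- and 1.6-fold. Jund, Fosl1 and Junb fell, with fitted folds of 2.26, 2.05 and 1.38. Batf, Fosb and Fos missed the threshold. All 10 genes were tested in a model across 12927 genes, and 7 of the 10 passed an adjusted p of 0.05. Over all genes tested 30.7% passed, with 16.2% higher and 14.5% lower in Setd2-CD4 cre (2094 and 1880 genes, or 1409 and 2879 with library totals as the scale). The median log2 fold change of the 10 was 0.45, beside -0.01 over all genes tested. The genotypes did not overlap for 9 of the 10 genes, all but Fos, beside 70.7% of all genes tested. Without WT 13, as without WT 15, Jun and Atf3 (2 genes) rose and Jund (1 gene) fell, and all other calls of the 10 were lost, while the calls over all genes dropped to 922 higher and 737 lower without WT 13 and 718 higher and 564 lower without WT 15. Without Setd2-CD4 cre 24, 6 of the 10 rose and 3 fell, in a fit that called 22.8% of all genes higher and 21.6% lower. No p-value is given for the 10 as a set.

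**Figure D1:**
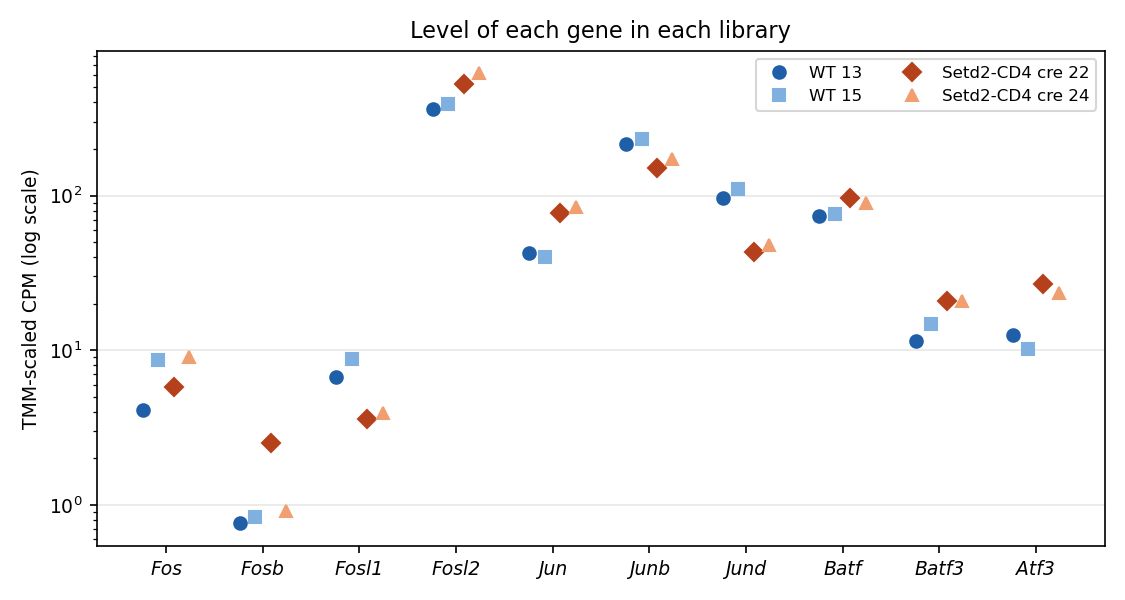
Level of each AP-1 and BATF gene in each of the 4 libraries, as CPM, counts per 1000000 after scaling (log axis, each point 1 library). Fosl2 had the most counts in every library, Fosb the fewest, and the WT points of Fos spanned 4.12 to 8.68 CPM.

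Libraries held 11007343 to 12518415 counts, and 3 counts, the upper limit that a count of 0 allows, equal 0.228 to 0.292 CPM on the scale used here. Setd2, the targeted gene, was counted at 184 CPM in WT 13, 176 in WT 15, 144 in Setd2-CD4 cre 22 and 153 in Setd2-CD4 cre 24. That difference missed the threshold (-0.28 on the log2 scale, SE 0.10, edgeR adjusted p = 0.0748) and passed it with library totals (-0.43, adjusted p = 0.0216). Those counts cover the whole gene and do not test for removed exons. The first principal component separated the genotypes with 74.3% of the variance, and the second, with 16.5%, had the Setd2-CD4 cre libraries at its ends. Of the 10 T cell and Th17 markers none was at 0 counts, 5 rose and 2 fell. The share not called was 30%, beside 69.3% of all genes tested. Their summed level was 2932 to 2941 CPM in WT and 3321 to 3763 CPM in Setd2-CD4 cre. That sum includes Il17a, at 163 and 202 CPM in WT and 570 and 587 CPM in Setd2-CD4 cre. Of the T cell genes, named with their values known, Cd3e (-0.48, edgeR adjusted p = 0.0224) and Trac (-0.57, 0.00982) fell. Cd28 rose (0.59, 0.00721) and Cd4 missed the threshold (-0.08, 0.665). The 13 B cell markers summed to 228 to 268 CPM in WT and 548 to 799.7 CPM in Setd2-CD4 cre. Ighm, named with its value known, gave 208 and 173 CPM of the sum in WT and 432 and 359 CPM in Setd2-CD4 cre. Of the 13, 10 rose while none fell, with a median log2 fold change of 2.39. The share not called was 23.1%, beside 69.3% of all genes tested. None of the 13 was at 0 in any library, and B cells also express AP-1 genes. The part of the B cell markers in the differences below was not tested. In such bulk samples fewer cells of a type and less RNA per cell cannot be told apart.

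Jun, which encodes c-Jun, the founding member of AP-1 that is activated by JNK kinases, had 42.7 CPM in WT 13, 40.0 in WT 15, 77.5 in Setd2-CD4 cre 22 and 84.9 in Setd2-CD4 cre 24. Both Setd2-CD4 cre libraries were above both WT libraries. Mean levels were 41.4 ± 1.87 CPM in WT and 81.2 ± 5.20 CPM in Setd2-CD4 cre (SD, n = 2), and the fitted log2 fold change was 0.97 (SE 0.12, 95% interval 0.69 to 1.25, edgeR adjusted p = 0.00177). Jun kept this call and direction under all 11 alternative settings tried, with log2 fold changes of 0.78 to 1.04.

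Jund encodes JunD, which in other cell types is known to restrain growth. Its level was 96.5 CPM in WT 13, 109.9 in WT 15, 43.4 in Setd2-CD4 cre 22 and 47.9 in Setd2-CD4 cre 24. The groups lay far apart relative to their spread, at 103 ± 9.49 and 45.6 ± 3.19 CPM (SD, n = 2 each). The log2 fold change was -1.18 (SE 0.13, 95% interval -1.47 to -0.89, edgeR adjusted p = 0.00127), and it ranged from -1.33 to -1.09 over the 11 alternatives, all past the threshold.

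Junb encodes JunB, the main partner of BATF in Th17 cells. It was measured at 215 CPM in WT 13 and 233 in WT 15, against 150.3 in Setd2-CD4 cre 22 and 174 in Setd2-CD4 cre 24, both lower. The log2 fold change was -0.47 (SE 0.12, 95% interval -0.74 to -0.20, edgeR adjusted p = 0.0202). The call of Junb was lost without WT 13 (adjusted p = 0.0847) and without WT 15 (0.187), each a fit with a single WT library that borrows its spread from the other genotype.

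The Jun genes thus moved in opposite directions, so it matters how much sequence they share. Across every pair of transcripts from different genes among the 10 in GENCODE M21, the longest identical stretch was 20 bases, between Jun and Jund. It is printed here in capitals with 20 coding bases on each side, 5′ to 3′ along each gene's own strand. The search was for exact matches only, so likeness with mismatches was not measured. Jun lies at chr4:95050542-95050601 on the minus strand and Jund at chr8:70699743-70699802 on the plus strand (GRCm38).

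Jun: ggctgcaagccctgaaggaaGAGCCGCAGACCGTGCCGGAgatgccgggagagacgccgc

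Jund: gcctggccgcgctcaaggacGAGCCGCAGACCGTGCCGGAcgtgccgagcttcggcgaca

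Every other pair shared at most 17 bases. The search covered GENCODE M21 transcripts only, and the models behind the deposited values are longer for some genes, such as Jund (2878 bases, against 1668 in GENCODE M21). The length of the reads was not stated. Jun, Junb and Jund lie in the deposited table at chromosome 4, 95049034 to 95052222, chromosome 8, 84976909 to 84978748, and chromosome 8, 70697739 to 70700616, in GRCm38. Jun and Jund have a single exon in GENCODE M21, as does a transcript of Junb.

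The RefSeq promoters of the genes were also searched. A promoter is taken as 250 bases before to 50 after a gene's start, and 9 of the 10 genes had an entry. None of the 9 held TGANTCA (an AP-1 site, in 7.81% of 32851 promoters), TGACGTCA (a cyclic AMP response element, 1.79%) or the SRF box (1.63%), on either strand. TGACATCA, a variant AP-1 site known from the Jun promoter, was searched after the others gave no match and after the promoters had been seen. Its match in the Jun promoter, 45 bases before the start, was therefore known in advance and does not test how the Jun genes differ. TGACATCA was found in none of the other 8. It occurs in 3.62% of all promoters. The last 60 bases before the start of the Jun genes are shown 5′ to 3′ along the gene, with this site in capitals (RefSeq, GRCm38.p6). They lie at chr4:95052223-95052282 (minus strand), chr8:84978749-84978808 (minus) and chr8:70697679-70697738 (plus).

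Jun: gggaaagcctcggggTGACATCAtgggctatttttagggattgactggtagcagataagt

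Junb: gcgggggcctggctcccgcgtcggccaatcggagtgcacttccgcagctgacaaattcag

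Jund: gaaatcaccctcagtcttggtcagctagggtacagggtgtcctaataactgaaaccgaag

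A match describes letters and not binding, and its absence covers this window alone. The start of Jund is placed at 70697739 in RefSeq and the deposited table but at 70698949 in GENCODE M21, so its window may not be the promoter in use. The Atf3 window (191183284 to 191183583, minus strand) lies inside its GENCODE M21 gene, which reaches 191218039. The windows of Fosl2 and Batf3 also lie inside their GENCODE M21 genes, so the same limit holds for Atf3, Fosl2 and Batf3.

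**Figure D2:**
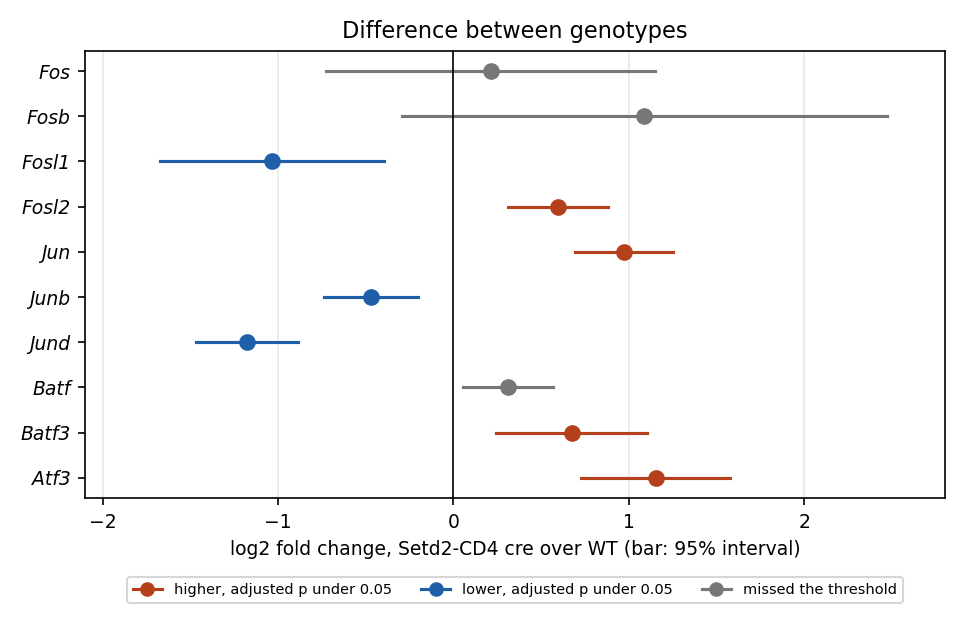
Log2 fold change of each gene in Setd2-CD4 cre over WT (points) with its 95% interval (bars) from edgeR, coloured by whether the adjusted p over 12927 genes was under 0.05. Jun, Fosl2, Batf3 and Atf3 lie to the right of 0, Junb, Jund and Fosl1 to the left, and the intervals of Fos and Fosb span 0.

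Among the Fos genes, Fosl2 (Fra-2) was the most abundant. It had 364 and 394 CPM in WT and 527 and 618 CPM in Setd2-CD4 cre, where both libraries were higher. The fitted rise was 0.59 on the log2 scale (SE 0.12, 95% interval 0.31 to 0.88, edgeR adjusted p = 0.0109). Its call was lost without WT 13 (adjusted p = 0.119) and without WT 15 (0.0744).

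Fosl1 (Fra-1), a close relative that also lacks the activation domain of c-Fos, went the other way from a low level. Levels were 6.71 CPM in WT 13, 8.76 in WT 15, 3.60 in Setd2-CD4 cre 22 and 3.94 in Setd2-CD4 cre 24, from 88, 115, 37 and 43 counts. The fall was -1.03 on the log2 scale (SE 0.28, 95% interval -1.67 to -0.39, edgeR adjusted p = 0.0266). It was lost with DESeq2 (adjusted p = 0.0824), without WT 13 (0.0655) and without WT 15 (0.231). Fosl1 overlaps Ccdc85b on the opposite strand, which had 108, 81, 82 and 44 counts in the order WT 13, WT 15, Setd2-CD4 cre 22 and 24. Whether counting used strand was not stated, so reads of the overlap are uncertain.

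Fos, the classic immediate early gene that is induced within minutes of a stimulus, varied more within WT than between genotypes. Its levels were 4.12 and 8.68 CPM in WT and 5.75 and 9.08 CPM in Setd2-CD4 cre, and the groups overlapped. Fitted on the log2 scale, the difference was 0.21 (SE 0.40, edgeR adjusted p = 0.709), with a 95% interval of -0.72 to 1.15 that spans both directions. Fos had log2 fold changes of -0.23 without WT 13 and -0.15 without Setd2-CD4 cre 24.

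Fosb, a further immediate early Fos gene, was close to the detection limit with 10, 11, 26 and 10 counts in the same library order. Only Setd2-CD4 cre 22 stood out, at 2.53 CPM against 0.762 to 0.917 CPM elsewhere. Its log2 fold change of 1.09 (SE 0.60, 95% interval -0.29 to 2.47) missed the threshold (edgeR adjusted p = 0.197). It was 0.20 without that library (adjusted p = 0.877), and passed without Setd2-CD4 cre 24 (1.65, adjusted p = 0.0369), where Setd2-CD4 cre 22 alone stood for its genotype.

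Batf, whose product with a Jun partner opens Th17 loci together with IRF4, had nearly equal counts of 962, 1003, 985 and 982. After scaling, these became 73.4, 76.4, 95.95 and 90.0 CPM, both WT libraries below both Setd2-CD4 cre libraries. The log2 fold change of 0.31 (SE 0.11, 95% interval 0.06 to 0.57) missed the threshold (edgeR adjusted p = 0.0651). It was 0.16 with library totals (adjusted p = 0.288), and passed without Setd2-CD4 cre 24 (0.36, adjusted p = 0.0106). How far Batf differed therefore depended on the scaling.

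Batf3, best known for the development of cross-presenting dendritic cells and also made by T cells, was lower in level. WT 13 had 11.4 CPM and WT 15 had 14.8, and both Setd2-CD4 cre libraries had 20.9, with no overlap. The rise of 0.67 on the log2 scale (SE 0.19, 95% interval 0.24 to 1.10, edgeR adjusted p = 0.0291) was lost under 7 of the 11 alternatives. These were upper-quartile factors, library totals, DESeq2, both fits on log2 FPKM, and the fits without WT 13 and without WT 15 (adjusted p = 0.0546 to 0.238).

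Batf3 is also a dendritic cell gene, so markers of those cells were read beside it. Of 13 myeloid and dendritic cell markers 8 could be tested, 1 rose (Flt3, 2.28, SE 0.38, edgeR adjusted p = 0.00659) and none fell. Of the 8, 87.5% were not called, beside 69.3% of all genes tested. The summed level of the 13 markers was 54.9 and 50.9 CPM in WT and 62.0 and 66.1 CPM in Setd2-CD4 cre. Single markers went both ways. Flt3, Cd68 and S100a9 were higher in Setd2-CD4 cre without overlap, and Lyz2, Itgam, Itgax and Adgre1 were lower without overlap. The genotypes did not overlap for 70.7% of all genes tested. Cd68 (0.245, edgeR adjusted p = 0.286), Lyz2 (-1.465, 0.247) and Itgam (-1.101, 0.182) missed the threshold. Adgre1 had 8, 8, 0 and 0 counts and was not tested. The mean of Flt3 was 3.31 CPM in WT and 16.2 CPM in Setd2-CD4 cre, and that of Lyz2 was 5.94 and 2.12 CPM. Cd68, Lyz2, Itgam and Adgre1 are named with their values known. Xcr1 and Clec9a, which mark the dendritic cells that need Batf3 and are named after their values were seen, had 0 counts in both Setd2-CD4 cre libraries and in WT 15, and 1 and 8 counts in WT 13. Zbtb46, a further dendritic cell gene of the list named in the same way, had 125, 103, 67 and 233 counts, so the genotypes overlapped (0.69, SE 0.59, edgeR adjusted p = 0.425). The part of these markers in the result for Batf3 was not tested. The next 2 by p-value, S100a9 (1.41, adjusted p = 0.115) and Itgax (-0.56, 0.125), missed the threshold.

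Atf3, a factor induced by cell stress that in macrophages restrains cytokine genes, had the largest fitted rise of the 7 genes that passed. It was counted at 12.6 CPM in WT 13, 10.1 in WT 15, 26.98 in Setd2-CD4 cre 22 and 23.6 in Setd2-CD4 cre 24, and every Setd2-CD4 cre value exceeded every WT value. The log2 fold change was 1.15 (SE 0.18, 95% interval 0.73 to 1.58, edgeR adjusted p = 0.00411), and it held under all 11 alternatives (0.87 to 1.31).

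Levels can be ordered between genes only per length, for which the deposited FPKM values (fragments per length of the gene and per depth of the library) were used. In WT, Junb led at 122 and 134 FPKM, followed by Batf at 80.5 and 84.6. Jund (35.1 and 40.4 FPKM) and Fosl2 (32.9 and 35.9) came next and overlapped, and Jun followed at 14.0 and 13.3. Atf3, Fosl1 and Batf3 lay together at 3.75 to 5.43 FPKM, above Fos (1.14 and 2.42) and Fosb (0.213 and 0.236).

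In Setd2-CD4 cre the order at the top was no longer separable. Batf stood at 93.7 and 90.8 FPKM and Junb at 76.2 and 90.9, so the genes overlapped. Fosl2 (42.3 and 51.3 FPKM) and Jun (22.7 and 25.6) were both above Jund (14.0 and 16.0). Atf3 (9.82 and 8.86 FPKM) and Batf3 (6.12 and 6.31) exceeded Fosl1 (1.97 and 2.22), which overlapped Fos (1.41 and 2.31). Relative to the 12927 tested genes, the mean FPKM of Junb, Batf and Fosl2 lay at the 97.8th, 97.3rd and 91.95th percentile. These orders rest on the deposited lengths, and some change with other lengths, as given after the shares.

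**Figure D3:**
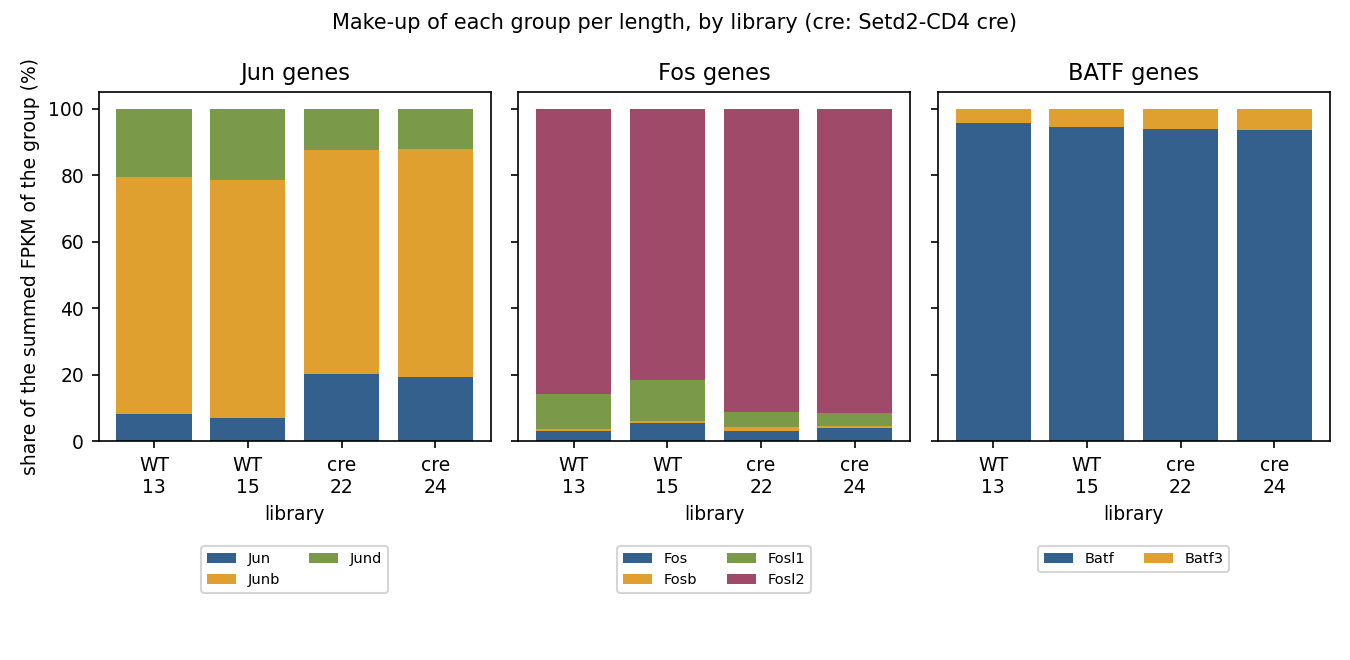
Share of each gene in the summed FPKM of its group, as stacked bars per library: Jun genes (Jun, Junb, Jund), Fos genes (Fos, Fosb, Fosl1, Fosl2) and BATF genes (Batf, Batf3). Jun makes up 7.07 to 8.17% of its group in WT and 19.3 to 20.1% in Setd2-CD4 cre, and Fosl2 is the largest part of the Fos group in every library.

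The make-up of each group was described per length, as the share of each gene in the group's summed FPKM. Jun held 8.17 and 7.07% of the Jun group in WT, and 20.1% (library 22) and 19.3% (library 24) in Setd2-CD4 cre. Jund held 20.5 and 21.5% in WT, and 12.4% (library 22) and 12.1% (library 24) in Setd2-CD4 cre. Junb was the main Jun transcript in every library, at 71.3 to 71.4% in WT and 67.5 to 68.6% in Setd2-CD4 cre. The shift was thus mainly between Jun and Jund, by 12.1 and -8.73 percentage points.

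The summed FPKM of the Jun group was 172 and 188 in WT, against 113 and 133 in Setd2-CD4 cre. FPKM are scaled by library totals, so the size of this fall depends on the scaling. In TMM-scaled CPM, not per length, the sum was 354 and 383 in WT, against 271 and 306 in Setd2-CD4 cre. The log2 ratio of the means was -0.55 by FPKM and -0.35 by CPM. The log2 ratio of Junb to Jun was 3.13 and 3.34 in WT, against 1.75 and 1.83 in Setd2-CD4 cre, and the ratio uses the same library for both genes, so scaling between libraries cancels. With 2 libraries a group an exact two-sided permutation test cannot give a p below 0.333, so these shares and ratios carry no test.

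In the Fos group the share of Fosl2 was 85.7 and 81.6% in WT, against 91.3 and 91.5% in Setd2-CD4 cre. The share of Fosl1 was 10.7 and 12.3% in WT, against 4.25 and 3.97% in Setd2-CD4 cre, so the groups did not overlap for either gene. Fos and Fosb together filled the small remainder. The log2 ratio of Fosl2 to Fos overlapped, at 4.85 and 3.89 in WT, against 4.91 and 4.48 in Setd2-CD4 cre.

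Batf made up 95.5 and 94.5% of the BATF group in WT, against 93.9 and 93.5% in Setd2-CD4 cre. The log2 ratio of Batf to Junb, its partner gene, was -0.61 and -0.67 in WT, against 0.30 and -0.00 in Setd2-CD4 cre. Per length, Junb therefore exceeded Batf in both WT libraries, and the genes were nearer to equal in Setd2-CD4 cre.

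The lengths behind these shares matter. The deposited FPKM imply 11608 bases for Fosl2, whose longest GENCODE M21 transcript has 6537, and 3792 bases for Fos, whose gene spans 3.384 kb. With the longest transcript as length, an alternative added after those lengths were seen, the share of Junb differed by 0.52 percentage points between genotypes instead of -3.36. The shares of Jun (11.4) and Jund (-11.9) kept their direction. The share of Fosl1 differed by -7.43 points with the deposited lengths, by -4.15 per longest transcript and by -1.31 in CPM. The order of levels in Setd2-CD4 cre also changed. Per longest transcript, Jund (24.2 and 27.6) overlapped Jun (22.7 and 25.6), and Fosl2 (75.2 and 91.1) overlapped Junb (77.5 and 92.5) and Batf (93.7 and 90.8). In WT by the same measure, Jund (60.6 and 69.7) still overlapped Fosl2 (58.4 and 63.7), and Batf3 (10.8 and 14.1) lay above Atf3 (6.64 and 5.40) and Fosl1 (3.77 and 4.97), which overlapped Fos (2.05 and 4.36). The differences between genotypes in log2 ratios do not depend on length.

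Several of the 10 are neighbours in the genome. Fos (chromosome 12, 85473890 to 85477273) and Batf (85686669 to 85709087) lie on the same strand with 209 kb between them, and Batf3 (chromosome 1, 191097847 to 191108945) and Atf3 (191170296 to 191218039) lie 61.4 kb apart on opposite strands. Jdp2, among the 4 genes annotated between Fos and Batf, encodes an AP-1 repressor that pairs with Jun proteins. Jdp2 rose from 7.24 and 9.06 CPM to 24.5 and 15.7 CPM (1.30 on the log2 scale, SE 0.26, edgeR adjusted p = 0.00939), while neither Fos nor Batf passed. Batf3 and Atf3 both rose, and the 2 genes annotated between them, Gm38161 and Fam71a, had 0 counts in every library.

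Other genes overlap the 10 on the opposite strand. Junos overlaps Jun and had 5 to 13 counts, and Gm11175 overlaps Jund and had 1 to 11 counts. Prdx2, an antioxidant enzyme gene that rose (0.40, SE 0.12, edgeR adjusted p = 0.0422), had 2651, 2804, 3103 and 2703 counts, as against 2821, 3064, 1543 and 1894 for Junb. Prdx2 overlaps Junb in GENCODE M21, whereas the coordinates of Junb in the deposited table begin beyond the GENCODE end of Prdx2.

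By a rule applied to 9793 genes, the genes whose deviations from their own mean log2 CPM over the 4 libraries lay nearest were named for Batf, Junb and Fosl2. They were Tlk2, Hps5 and Guf1 for Batf, at distances of 0.013 to 0.018 (log2 CPM). Ttc28, Gtf3c4 and Pik3r5 were nearest to Junb at 0.016 to 0.030. Hyou1, Lamb3 and Stambp were nearest to Fosl2 at 0.020 to 0.040. With 4 libraries such likeness is a description.

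The wider bZIP family holds the CREB, ATF, C/EBP, MAF, BACH and NRF factors, several of which pair with AP-1 proteins. Of 41 such genes 31 were tested, 6 rose and 5 fell, with a median log2 fold change of 0.20. Atf4, the effector of the integrated stress response, rose from 248 and 256 CPM to 766 and 605 CPM (1.45, SE 0.14, edgeR adjusted p = 0.00106). Atf7, a relative of Atf2 that can pair with Jun proteins, fell from 69.6 and 70.9 CPM to 24.4 and 30.4 CPM (-1.36, SE 0.15, adjusted p = 0.00127). Nfil3, a repressor that influences T helper fate, rose from 49.1 and 46.6 to 94.4 and 93.0 CPM (0.97, SE 0.11, adjusted p = 0.00148). For none of the 3, named for their small p-values, did the genotypes overlap, as for 70.7% of all genes tested. Of the 31 tested, 64.5% were not called, beside 69.3% of all genes tested. The number of the list called changed with the library left out, as it did over all genes.

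Of 10 factors that bind beside AP-1 in T cells, all tested, 4 rose and 1 fell, with a median of 0.52. Runx3 (1.02, SE 0.11, edgeR adjusted p = 0.00123), a Runt factor gene, Stat3 (0.86, SE 0.11, adjusted p = 0.002), which carries the signal of interleukins 6 and 23, and Nfatc3 (0.63, SE 0.12, adjusted p = 0.00749) rose. The call of Nfatc3 was lost without WT 15 (adjusted p = 0.121). The gene that fell was Irf4, the partner of BATF, named after its value was seen, from 404.5 and 494 CPM to 348 and 313 CPM (-0.44, SE 0.13, adjusted p = 0.0382). Of the 10 factors, 50% were not called, beside 69.3% of all genes tested. Fewer were called when either WT library was left out, as over all genes.

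Kinases and serum response factors act upstream of AP-1. Of 36 genes 34 were tested, 4 rose and 3 fell, with a median of 0.05, and 79.4% were not called, beside 69.3% of all genes tested. Mapk11 (-1.55, SE 0.16, edgeR adjusted p = 0.00122) and Mapk12 (-1.75, SE 0.30, adjusted p = 0.00565), both genes of p38 kinases, fell. Mapk14, a further p38 gene named with its value known, had a WT mean of 85.0 CPM, above both. Its genotypes overlapped and it missed the threshold (-0.135, SE 0.30, adjusted p = 0.764). Map3k2, a kinase gene upstream of JNK and ERK5, rose (0.68, SE 0.10, adjusted p = 0.00339). The JNK genes Mapk8 (-0.13, SE 0.14, adjusted p = 0.499) and Mapk9 (0.24, SE 0.11, adjusted p = 0.125) missed it; both were chosen for naming with their values known. How many of these genes were called changed with the library left out, as it did over all genes tested.

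Jun proteins are turned over by ubiquitin ligases such as ITCH and COP1. Of 6 genes for these ligases and their adaptors 1 rose and 1 fell, with a median of 0.02. The share not called was 66.7%, beside 69.3% of all genes tested. Det1, an adaptor of COP1, fell (-0.68, SE 0.18, edgeR adjusted p = 0.0244) and Cop1 rose (0.44, SE 0.12, adjusted p = 0.0283). Both calls were lost without WT 13, without WT 15 and with DESeq2 (adjusted p = 0.0666 to 0.208), and that of Cop1 under 4 further alternatives. Itch stood at 131 and 130 CPM in WT and 154 and 159 CPM in Setd2-CD4 cre (0.27, SE 0.10, adjusted p = 0.0793), and passed when either Setd2-CD4 cre library was left out (adjusted p = 0.0203 without 22 and 0.0471 without 24).

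Immediate early genes are induced with Fos and Jun when cells are stimulated or handled. Of 26 such genes besides the AP-1 members, 8 rose and 5 fell, with a median of -0.07. Nr4a3, a nuclear receptor gene induced by the T cell receptor (1.27, SE 0.11, edgeR adjusted p = 0.000915), Klf6 (1.04, SE 0.10, adjusted p = 0.00113) and the clock gene Per1 (1.19, SE 0.14, adjusted p = 0.00157) rose. Ier2 (-1.14, adjusted p = 0.0019) and Egr1 (-1.01, adjusted p = 0.00567) fell, and were chosen for naming with their values known. Like the Jun genes, the list held members in both directions, and 50% of it was not called, beside 69.3% of all genes tested. Fewer of the list were called when either WT library was left out, as over all genes.

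**Figure D4:**
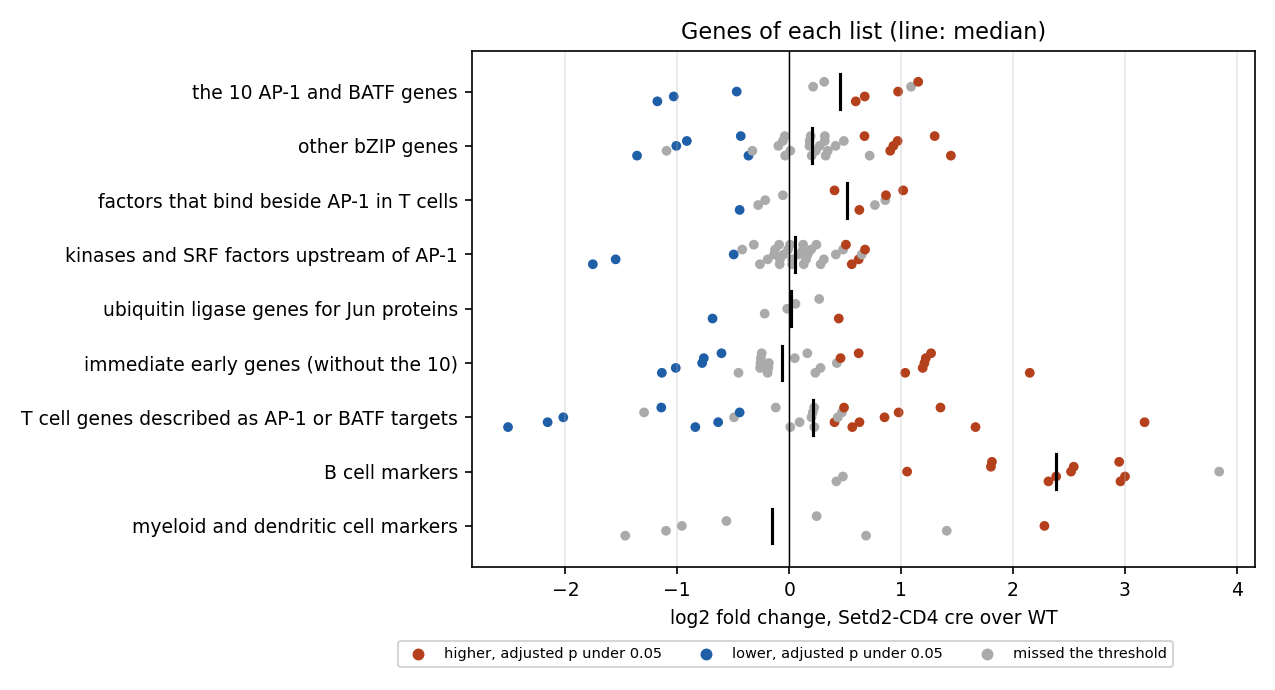
Log2 fold change of every tested gene in each list (points, coloured by call) with the list's median (black line). The 10 AP-1 and BATF genes, the immediate early genes and the AP-1 or BATF targets hold genes called in both directions, and the B cell markers have a median of 2.39.

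Of 28 T cell genes described as targets of AP-1 or BATF, 27 were tested, 9 rose and 7 fell, with a median of 0.21. Il23r, which encodes the interleukin 23 receptor on Th17 cells, rose from 50 counts in both WT libraries to 366 and 364 counts (3.18, SE 0.18, edgeR adjusted p = 0.000455). Il17a also rose (1.67, SE 0.13, adjusted p = 0.000695), and Tnf fell (-2.51, SE 0.17, adjusted p = 0.000584). Il2 (-2.16, SE 0.38, adjusted p = 0.00608) and Csf2 (-2.02, SE 0.38, adjusted p = 0.00785), cytokine genes controlled by NFAT with AP-1 and named after their values were seen, fell. Of the 27 tested, 40.7% were not called, beside 69.3% of all genes tested, and fewer were called when either WT library was left out, as over all genes. These genes respond to many factors, and their relation to the AP-1 genes was not tested.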

How the data were processed

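Per the file headers, the authors gave a count and an FPKM value for every gene and library. Bowtie2, RSEM, GRCm38.p6 and mm10 are named in the submitters' processing notes. Gene models, strand use and the handling of shared reads were not stated. FPKM could be rebuilt from the counts with 1 length per gene, to within 0.0674%.

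Counts of all genes were tested with edgeR 4.0.16 in R 4.3.3 (TMM factors, filterByExpr, robust quasi-likelihood fit, Benjamini-Hochberg over 12927 genes, threshold 0.05). SE is the log2 fold change divided by the root of F. CPM are TMM-scaled. Alternatives were upper-quartile factors, library totals, no filter, DESeq2 1.42.0, limma 3.58.1 (voom, and trend on log2(FPKM + 1) and log2(FPKM + 0.1)) and leaving out each library. The fit was also run on simulated counts, and that run does not test the calls made here. Group labels came from sample titles, although for WT 15 another label begins with 14.

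The genes and lists were chosen with earlier results of these data known. Named genes are the 10, Setd2, genes overlapping the 10, the 3 smallest p-values per list and the nearest patterns among genes with a mean of at least 5 CPM. Of the list symbols 1 matched through a synonym (Cop1, as Rfwd2). Protein sequences were not used here. Intervals and floors cover counting error or library spread only.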

Additional observations from a re-analysis of the deposited data

How the results depend on the processing

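Jun, Jund and Atf3 passed in the same direction under all 11 alternatives, and Fosl1, Fosl2, Junb and Batf3 kept their direction and lost their call in some, as given above. Upper-quartile factors and library totals shifted the median of all genes by -0.11 and -0.15 on the log2 scale. Genes called numbered 2094 higher and 1880 lower, 1267 higher and 2746 lower with log2(FPKM + 1), 1269 and 2674 with log2(FPKM + 0.1), 2879 lower with library totals (1409 higher), 2617 lower with upper-quartile factors (1565 higher), and, leaving out 1 library at a time, 718 to 3068 higher and 564 to 2903 lower. With 1 library of a genotype left, it is assumed to vary like the others. Of the 10 genes, 2 to 6 were higher and 1 to 3 lower. The log2 fold change of Fos lay between -0.23 and 0.84. In the same fits, list counts ran, higher then lower, from 6 to 11 and 1 to 6 (other bZIP), 2 to 6 and 0 to 3 (factors beside AP-1), 1 to 8 and 2 to 6 (kinases), 0 to 2 and 0 to 1 (ligases), 2 to 7 lower (immediate early), 4 to 12 higher (targets), 3 to 6 and 0 to 4 (T cell and Th17) and 1 to 2 and 0 to 1 (myeloid). With DESeq2, 2 other bZIP genes, 3 immediate early genes and 0 ligase genes were lower and 0 ligase genes higher, as with upper-quartile factors, library totals and both FPKM fits (0 each). Without a filter 1 myeloid marker was lower. Differences in share, in percentage points, were 16.9 (Jun), -4.74 (Junb), -12.2 (Jund), -1.31 (Fosl1), 1.55 (Fosl2) and -3.53 (Batf) by CPM, not per length, and 11.4, 0.52, -11.9, -4.15, 4.81 and -3.18 by longest transcript. The change in the log2 Fosl2 to Fos ratio was -0.16 to 0.80 without each library. No paired analysis was possible because the genotypes share no replicate number. With 2 libraries a genotype, low genes such as Fosb and Fosl1 are limited by counts.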
